A study of Nicotiana benthamiana with 9 samples.

Results

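The plastid ribosomal RNA operon and the tRNA genes beside it were followed in Nicotiana benthamiana, a tobacco relative whose leaves are widely used for transient expression. The members are the rows named rrn16, rrn23, rrn4.5, rrn5, trnV, trnA, trnR and trnN in the deposited count table once its prefixes are removed. All 8 names were found, each as 1 row, among 106 rows (105 plastid genes and the editor transgene). The 9 libraries came from wild-type leaves, and all of them expressed P19, a viral suppressor of RNA silencing. In 3 libraries P19 was expressed alone. In 3 it was combined with dPPRerpl2, a designed RNA editing factor made of pentatricopeptide repeats, expressed from the vector pGWB2, and in 3 with the same factor expressed from pMDC32. Replicate 1 of every group is labelled 2 dpi (days after infiltration) and replicates 2 and 3 are labelled 3 dpi. The series text names 3 dpi alone, and labelled day and replicate number cannot be told apart. The sources used here give neither the age of the plants nor whether leaves were pooled.

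Plastids make protein on their own bacterial-type ribosomes. In tobacco and its relatives the rRNAs of these ribosomes are transcribed as 1 long precursor from the inverted repeat, and nucleases then cut the precursor into the mature RNAs. The rrn16 product is the core of the small ribosomal subunit. The rrn23, rrn4.5 and rrn5 products belong to the large subunit, where the rrn4.5 RNA corresponds to the end of the bacterial large-subunit rRNA. Spacer tRNAs sit between rrn16 and rrn23, and the trnA gene there carries a group II intron. The products of trnV, trnA, trnR and trnN carry valine, alanine, arginine and asparagine to the ribosome.

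On the plastid sequence of the count table (the sources used here name no build), the rows lie within 8263 nt. The order in the direction of transcription is trnV (139821 to 139892), rrn16 (138103 to 139593), trnA (136168 to 136949), rrn23 (133205 to 136014), rrn4.5 (133001 to 133103), rrn5 (132624 to 132744) and trnR (132290 to 132363), all on the minus strand. Last comes trnN (131630 to 131701), on the plus strand. The trnA row is 782 nt long, so it holds the intron as well as the tRNA, whereas the other tRNA rows are 72 to 74 nt long. A stretch of 1153 nt between rrn16 and trnA holds no row, so the spacer tRNA trnI of the operon was not analysed here. The one row named trnI (153565 to 153638) lies beside rpl23 and is not part of the operon. The rps12 row spans all 8 members but shares a strand with trnN alone, and the sources used here do not say how reads were counted where rows overlap. Each repeat gene is listed once, and reads of the other copy may have been merged or discarded.

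Ribosomal RNA had been removed before the libraries were made, so the rRNA rows hold what depletion left. Libraries held 32457135 to 44392760 counted reads, of which the 8 members took 0.290% to 0.793% and the 4 rRNAs 0.0380% to 0.0890%. P19 replicate 1 stood apart: psbA, the most abundant plastid transcript, took 61.1% of its counts against 44.0% to 52.6% elsewhere, and its scaling factor was 0.742 against 0.956 to 1.09. Results that rest on it are given with and without it.

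The trnA row dominated the members. It took 75.5% to 87.7% of member counts per library, and rrn23 took 69.3% to 80.2% of the rRNA counts. Levels between genes were compared as CPM (counts scaled to a common library size, with the TMM factors of edgeR) per kilobase of row length. On that scale trnA had a median of 5952 over the 9 libraries, trnR 2401 and trnN 749. The rows trnV (222), rrn23 (152), rrn16 (103), rrn4.5 (40.2) and rrn5 (10.7) followed. The rows trnV, trnR, trnN, rrn4.5 and rrn5 are 72 to 121 nt long, against 1491 nt for rrn16 and 2810 nt for rrn23. No allowance was made for read length, so the order of short against long rows may partly reflect row length, which was not tested. Per length, trnA exceeded rrn16 by 31.0 to 79.3 times and rrn23 by 17.9 to 58.4 times, in all 9 libraries. Since rRNA was depleted, these ratios and the low place of the rRNA rows do not give levels in the leaf. The part of depletion in them was not tested. The ranges of trnA (2951 to 8282) and trnR (1128 to 3532) touched, and so did those of trnV (159 to 291), rrn23 (105 to 325) and rrn16 (47.2 to 187), whereas trnN (541 to 944) lay below every trnR value and above every trnV value. The rrn5 range (7.60 to 19.2) overlapped the bottom of that of rrn4.5 (17.3 to 112).

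**Figure D1:**
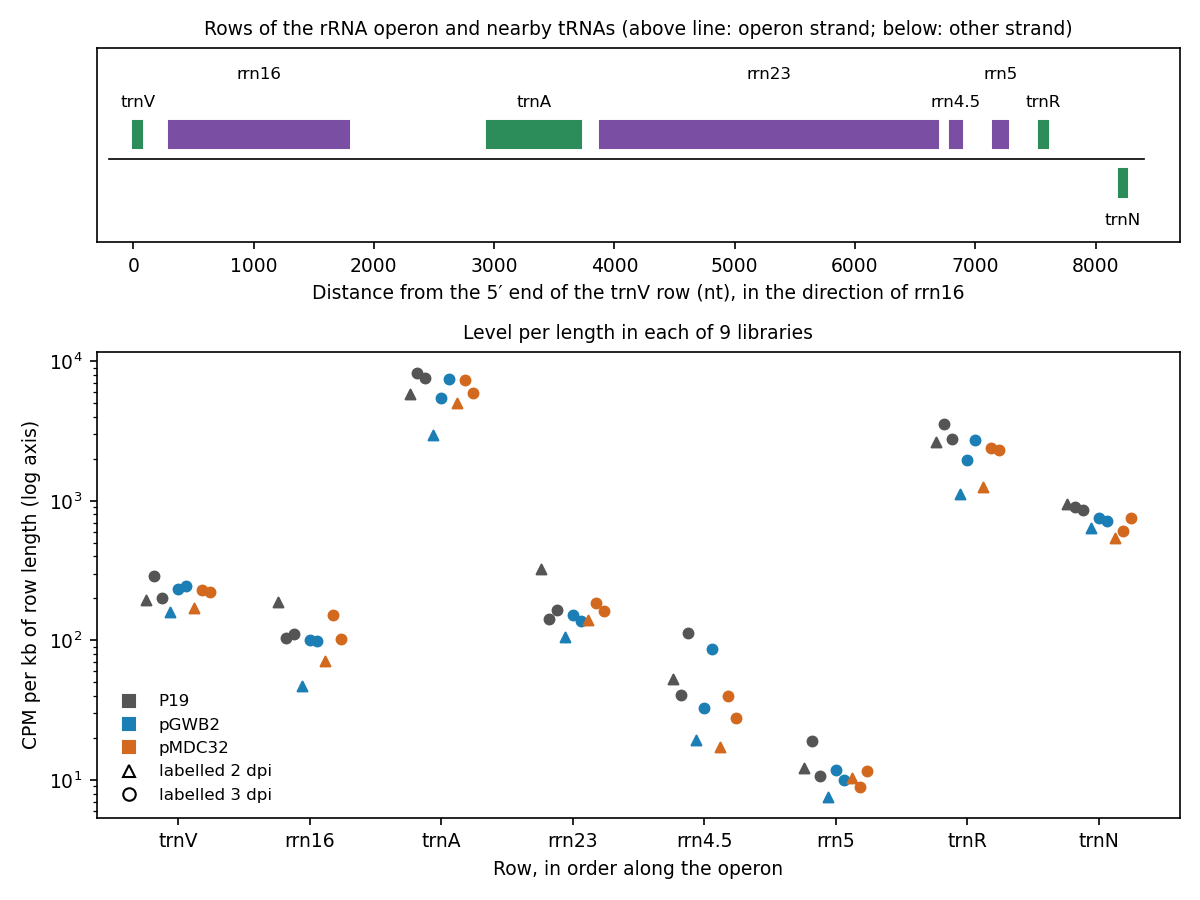
Top: the 8 rows drawn to scale by distance in nt from the start of the trnV row (rRNA purple, tRNA green, trnN on the other strand). Bottom: CPM per kilobase on a log axis, 1 point per library, coloured by group and shaped by labelled day. The trnA row, with a median of 5952, is the highest in every library and rrn5, with a median of 10.7, the lowest. The rRNA rows hold what depletion left.

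Of the rRNA rows, rrn4.5, rrn16 and rrn23 varied widely between libraries and rrn5 less so. The 105 plastid rows were ranked by the standard deviation of log2 CPM over the 9 libraries. The rrn4.5 row was 1 (0.91), rrn16 was 3 (0.57), trnR was 5 (0.55), trnA was 9 (0.45) and rrn23 was 11 (0.44). The rrn5 row was 26 (0.37) and trnV was 50 (0.27), while the median row had 0.27. P19 replicate 1 was the highest library for rrn16, at 280 CPM against 70.4 to 226 elsewhere. It was also the highest for rrn23, at 912 CPM against 296 to 523. The highest library exceeded the lowest by 6.48 times for rrn4.5 and 3.97 times for rrn16, and by 1.74 times for trnN, whose rank was 52.

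The small-subunit rRNA rrn16 stood at 280, 156 and 167 CPM in P19 replicates 1 to 3, at 70.4, 151 and 147 CPM with pGWB2, and at 106, 226 and 154 CPM with pMDC32. P19 replicate 1 was the highest library, and replicate 1 of each editor group was the lowest of its group. The groups overlapped.

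The large-subunit rRNA rrn23 stood at 912, 399 and 463 CPM in P19, at 296, 426 and 386 CPM with pGWB2, and at 393, 523 and 457 CPM with pMDC32. Its order was like that of rrn16, with P19 replicate 1 far above every other library. That library also led as a plain share of all counts, with rrn23 at 0.0677% against 0.0305% to 0.0573% elsewhere. For rrn16 its share of 0.0208% lay below the 0.0248% of pMDC32 replicate 2.

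The rrn4.5 row stood at 5.43, 4.17 and 11.6 CPM in P19, at 1.98, 3.37 and 8.99 CPM with pGWB2, and at 1.78, 4.14 and 2.88 CPM with pMDC32. It rested on 73 to 429 reads per library. Replicate 3 of P19 (410 reads, exact Poisson 95% interval 371 to 452) and of pGWB2 (429 reads, 389 to 472) stood above the others, and replicate 3 of pMDC32 (102 reads) did not. The intervals on counts cover counting error only.

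The rrn5 row had 38 to 88 reads per library (0.920 to 2.32 CPM), and its 38 reads in P19 replicate 1 have an exact Poisson 95% interval of 26.9 to 52.2, so modest differences of rrn5 were not detectable at this depth.

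Among the tRNAs, trnA stood at 4545, 6476 and 5914 CPM in P19, at 2308, 4271 and 5809 CPM with pGWB2, and at 3958, 5794 and 4654 CPM with pMDC32. The trnR row, after the last rRNA of the operon, stood at 197, 261 and 205 CPM in P19, at 83.4, 146 and 202 CPM with pGWB2, and at 92.9, 178 and 172 CPM with pMDC32. Replicate 1 was the lowest library of its group for both rows in all 3 groups. The trnV row, ahead of rrn16, ran from 11.5 to 21.0 CPM (364 to 844 reads).

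The trnN row stood at 68.0, 65.0 and 61.5 CPM in P19, at 46.4, 53.9 and 52.0 CPM with pGWB2, and at 39.0, 44.0 and 53.9 CPM with pMDC32. All 6 editor libraries lay below all 3 P19 libraries. As plain shares of counts the groups overlapped, since P19 replicate 1 (0.00505%) then lay below pGWB2 replicate 3 (0.00560%).

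**Figure D2:**
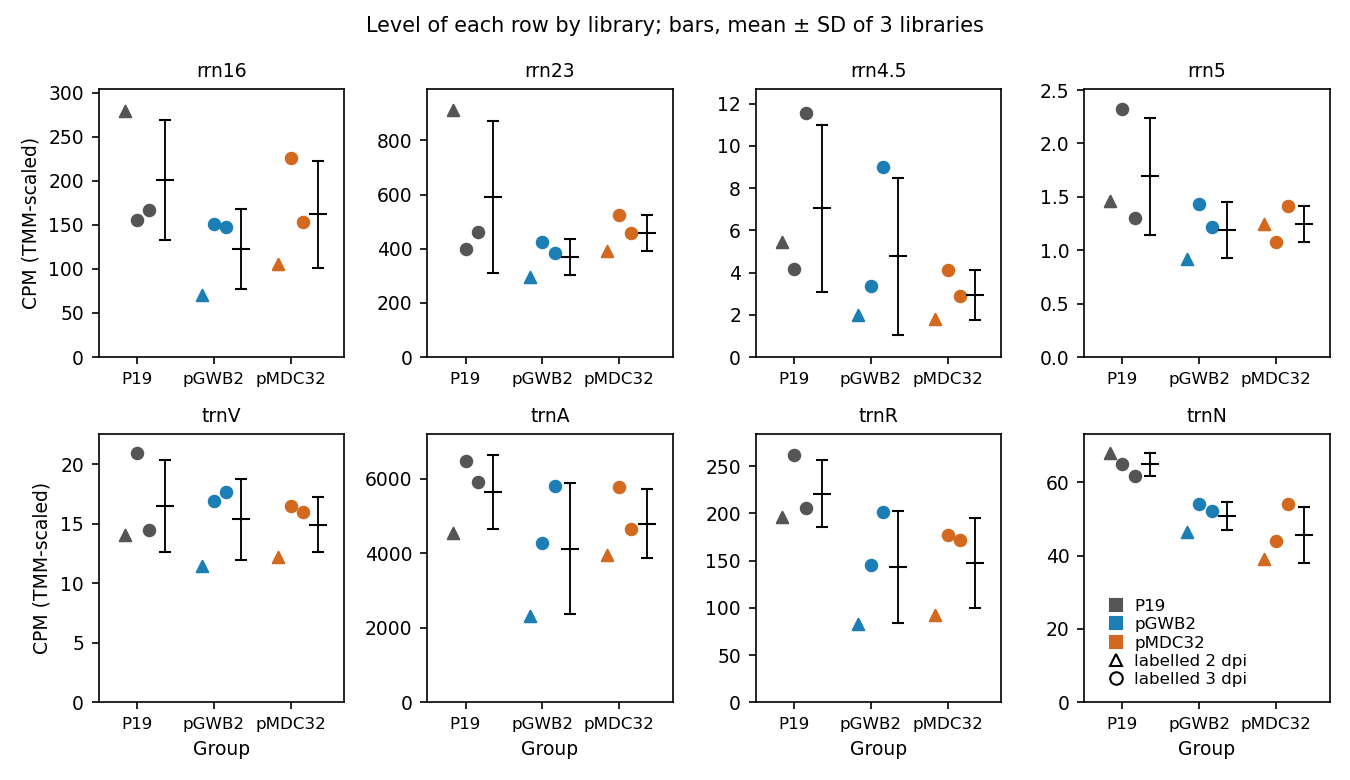
CPM of each row (linear axes from 0) in the 9 libraries by group, with triangles for the library labelled 2 dpi and circles for 3 dpi; bars give mean ± SD of 3 libraries. In rrn16 and rrn23 the P19 triangle (280 and 912 CPM) lies above every other P19 point while both editor triangles lie below their circles; in trnN the 6 editor points (39.0 to 53.9 CPM) lie below the P19 points.

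The comparison of editor leaves with P19 asks whether the factor altered plastid transcript levels. No member passed the test in it. All 8 members had lower fitted levels with the editor than with P19 alone, with a median log2 difference of -0.49 against -0.08 over all plastid rows, of which 58.1% were below 0. The differences were -0.87 (SE 0.50) for rrn4.5, -0.60 (SE 0.27) for trnR, -0.52 (SE 0.26) for rrn23, -0.50 (SE 0.32) for rrn16, -0.49 (SE 0.22) for rrn5, -0.43 (SE 0.13) for trnN, -0.34 (SE 0.25) for trnA and -0.13 (SE 0.19) for trnV. In edgeR's quasi-likelihood fit, with p-values adjusted over all rows by the Benjamini-Hochberg (BH) method, 0 of 8 members had an adjusted p under 0.05 (0% of plastid rows), and DESeq2 and limma-voom called 0 of 8 as well. At an unadjusted p under 0.05 there were 2 members, trnN and trnR, against 15.2% of plastid rows.

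The trnN row had the smallest p of the members, with 64.8 ± 3.21 CPM in P19 (SD, n = 3) and 48.2 ± 6.11 with the editor (SD, n = 6). Its log2 difference of -0.43 had a 95% interval of -0.73 to -0.13 and a BH-adjusted p of 0.264 in that edgeR fit. Of the 8 members it was the 1 whose groups did not overlap downward, which held for 3.81% of plastid rows. Every value is relative to the other plastid RNA, so neither the number of plastids or cells nor the total RNA in each can be read from it.

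For rrn16 and rrn23 the size of the difference rested on P19 replicate 1. Without it the log2 differences were -0.14 for rrn16 and -0.0094 for rrn23, and among the libraries labelled 3 dpi, which leaves out the 2 dpi editor libraries too, they were 0.11 and 0.10. Without that library the others were -0.97 for rrn4.5, -0.64 for trnR, -0.53 for rrn5, -0.43 for trnA, -0.34 for trnN and -0.19 for trnV. The rrn4.5 difference was -0.31 without P19 replicate 3 and -1.32 without pGWB2 replicate 3. The rrn5 difference was -0.16 without P19 replicate 2, and that of trnA -0.20 without the same library and -0.18 without pGWB2 replicate 1. The trnV sign turned when counts were scaled by library size alone (0.027) and without P19 replicate 2 (0.10).

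Each vector was also set against the same P19 libraries. With pGWB2 the log2 differences ran from -0.71 (SE 0.38, rrn16) to -0.10 (SE 0.24, trnV), and with pMDC32 from -1.27 (SE 0.59, rrn4.5) to -0.15 (SE 0.24, trnV). For rrn16 they were -0.71 with pGWB2 and -0.31 with pMDC32, for rrn23 -0.68 and -0.37, for trnR -0.62 and -0.58, and for trnN -0.35 and -0.51. By edgeR, DESeq2 and limma-voom 0 of 8 members passed in either comparison (0% of plastid rows by edgeR). At an unadjusted p under 0.05 these comparisons had 0 and 1 members, trnN being the 1, against 5.71% of plastid rows in each. Without P19 replicate 1, rrn16 was -0.37 with pGWB2 and 0.065 with pMDC32, and rrn23 was -0.20 and 0.16.

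Sequencing lane, read from the column headers, differed between libraries. All pGWB2 libraries and P19 replicates 2 and 3 were on lane 4, pMDC32 replicates 1 and 2 and P19 replicate 1 on lane 8, and pMDC32 replicate 3 on lane 5. Within lane 4 the pGWB2 differences were -0.40 for rrn16, -0.22 for rrn23 and -0.32 for trnN. Within lane 8, where P19 has 1 library, those of pMDC32 were -0.72 for rrn16, -0.95 for rrn23 and -0.67 for trnN. With lane as a covariate 2 members passed in pMDC32 against P19, rrn23 at -0.99 (adjusted p = 0.00746) and trnN at -0.71 (adjusted p = 0.0237), both by edgeR with BH adjustment. That fit called 49 plastid rows and compares the groups through P19 replicate 1.

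The vectors were then set against each other. The log2 differences, pMDC32 minus pGWB2, ran from -0.71 (SE 0.59) for rrn4.5 to 0.40 (SE 0.37) for rrn16, with 0.31 (SE 0.30) for rrn23, 0.22 (SE 0.30) for trnA and -0.15 (SE 0.16) for trnN. By edgeR with BH adjustment 0 of 8 members passed (0% of plastid rows), 0 had an unadjusted p under 0.05, and DESeq2 and limma-voom called 0. The 95% interval of rrn16, -0.44 to 1.24, and that of rrn4.5, -2.03 to 0.61, leave room for differences of over 2-fold. The rows rrn16 and rrn4.5 were the highest and the lowest of all 105 plastid rows in this comparison, but both values rested on single libraries. Without pMDC32 replicate 2 rrn16 was 0.079, and without pGWB2 replicate 1 it was 0.16. Without pGWB2 replicate 3 rrn4.5 was 0.13.

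Within the editor groups, rRNA and tRNA of the operon were lower in the libraries labelled 2 dpi. In pGWB2 all 8 members, and in pMDC32 7 of 8 (all except rrn5), lay below both 3 dpi libraries of their group. Of all plastid rows 38.1% did so in pGWB2 and 41.0% in pMDC32. In both groups at once this held for 7 of 8 members and for 23.8% of plastid rows. In pGWB2 the 2 dpi library had 47.2% of the mean 3 dpi level for rrn16, 45.8% for trnA and 48.1% for trnR. In pMDC32 it had 55.6% for rrn16, 75.8% for trnA and 53.1% for trnR.

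A fit of the 6 editor libraries with the vector as covariate called 5 of 8 members, all lower at 2 dpi, against 6.67% of plastid rows called in that direction. This fit leaves out P19 and was an alternative to the day fit of all 9 libraries, which called 0 members. The pattern by day was known beforehand, so the p-values that follow describe it and are no independent test. The log2 differences, 2 dpi minus 3 dpi, were -1.36 for rrn4.5 (SE 0.28, adjusted p = 2.77e-05), -1.01 for trnR (SE 0.14, adjusted p = 3.78e-10) and -0.98 for rrn16 (SE 0.14, adjusted p = 9.06e-10). They were -0.77 for trnA (SE 0.14, adjusted p = 1.56e-06) and -0.41 for rrn23 (SE 0.13, adjusted p = 0.0269), all by edgeR with BH adjustment. The differences of trnV (-0.53, SE 0.19), trnN (-0.29) and rrn5 (-0.28) did not pass. DESeq2 called the same number of members, 5, and limma-voom 6, trnV being the sixth. The other plastid rows called by edgeR were trnG and ccsA, both lower at 2 dpi, and both alternatives called them too. DESeq2 also called psbZ, ndhH, psbD and ndhI, all higher at 2 dpi (log2 differences 0.29 to 0.36). By limma-voom trnfM was called as well, lower at 2 dpi (-0.51).

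These p-values rest on 2 libraries against 4, and edgeR gave every row of that fit a common spread, so they do not reflect each row's own variation. Without pGWB2 replicate 1, 0 of 8 members passed. The trnA difference was then -0.42, that of rrn23 -0.34 and that of rrn4.5 -0.996 (edgeR adjusted p = 0.636 for each), with rrn16 at -0.86 (adjusted p = 0.0742) and trnR at -0.94 (adjusted p = 0.0723) by edgeR with BH adjustment. Without pMDC32 replicate 1, 3 passed, with rrn16 at -1.11, trnA at -1.16 and trnR at -1.09. The rrn23 call was also lost without pGWB2 replicate 2 (-0.33, adjusted p = 0.145) and without pMDC32 replicate 2 (-0.35, adjusted p = 0.143) in the same edgeR fit. All pGWB2 libraries shared lane 4, and pMDC32 replicates 1 and 2 shared lane 8. For rrn16 the lane 4 values with pGWB2 were 70.4 CPM at 2 dpi against 151 and 147 CPM. The lane 8 values with pMDC32 were 106 CPM at 2 dpi against 226 CPM, 1 library against 1. That pMDC32 replicate 2 had the highest rrn16 level of all libraries labelled 3 dpi, and the part of lane was not tested. The editor transcript moved with the members: its 2 dpi level was 1221 CPM against 4266 and 4236 with pGWB2, and 2599 CPM against 9675 and 6197 with pMDC32. Its part in the result was not tested.

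**Figure D3:**
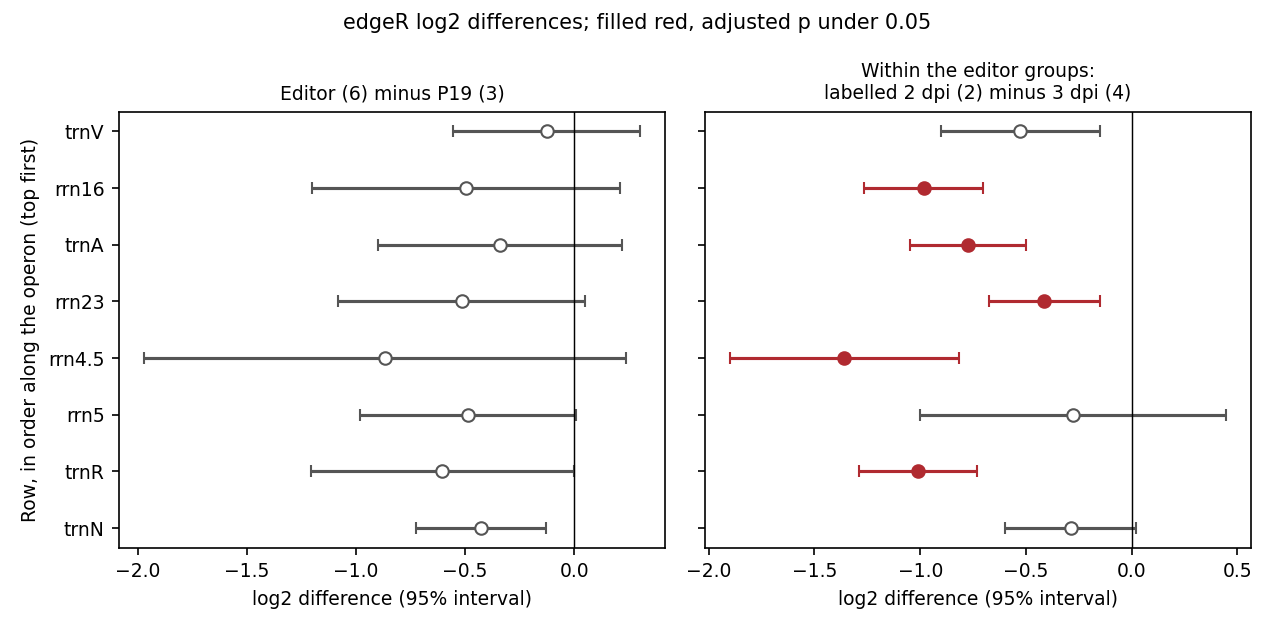
edgeR log2 differences with 95% intervals for the 8 rows in operon order. Left, 6 editor libraries minus 3 P19 libraries: no row passes. Right, 2 editor libraries labelled 2 dpi minus 4 labelled 3 dpi: the rows in filled red (rrn16, trnA, rrn23, rrn4.5 and trnR, -0.41 to -1.36) have an adjusted p under 0.05.

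In P19 leaves the 2 dpi library lay below both 3 dpi libraries for 3 members and above both for 3, against 45.7% and 42.9% of plastid rows. P19 replicate 1 had 173% of the mean 3 dpi level for rrn16 and 212% for rrn23, and 107% for trnN, each above both 3 dpi libraries, while trnA (73.4%), trnR (84.2%) and trnV (79.1%) lay below both. The rows rrn4.5 and rrn5 lay between them. Over all 9 libraries, with the group as covariate, 0 of 8 members passed for labelled day (0% of plastid rows). The log2 differences were -1.02 for rrn4.5 (SE 0.44), -0.73 for trnR (SE 0.20), -0.64 for trnA (SE 0.18), -0.45 for trnV (SE 0.15), -0.31 for rrn16 (SE 0.34) and 0.15 for rrn23 (SE 0.28). By edgeR 4 members, rrn4.5, trnR, trnA and trnV, had an unadjusted p under 0.05, against 11.4% of plastid rows, limma-voom called 0 and DESeq2 2 (trnA and trnR). Of the members trnV alone was lower in every 2 dpi library than in every 3 dpi library, which held for 1.90% of plastid rows. Without P19 replicate 1, rrn16 (-0.93, adjusted p = 0.00344) and trnR (-0.96, adjusted p = 0.00490) passed by edgeR with BH adjustment, and that fit compares days within the editor groups only. The others were then -1.30 for rrn4.5, -0.72 for trnA, -0.48 for trnV and -0.36 for rrn23, and did not pass.

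**Figure D4:**
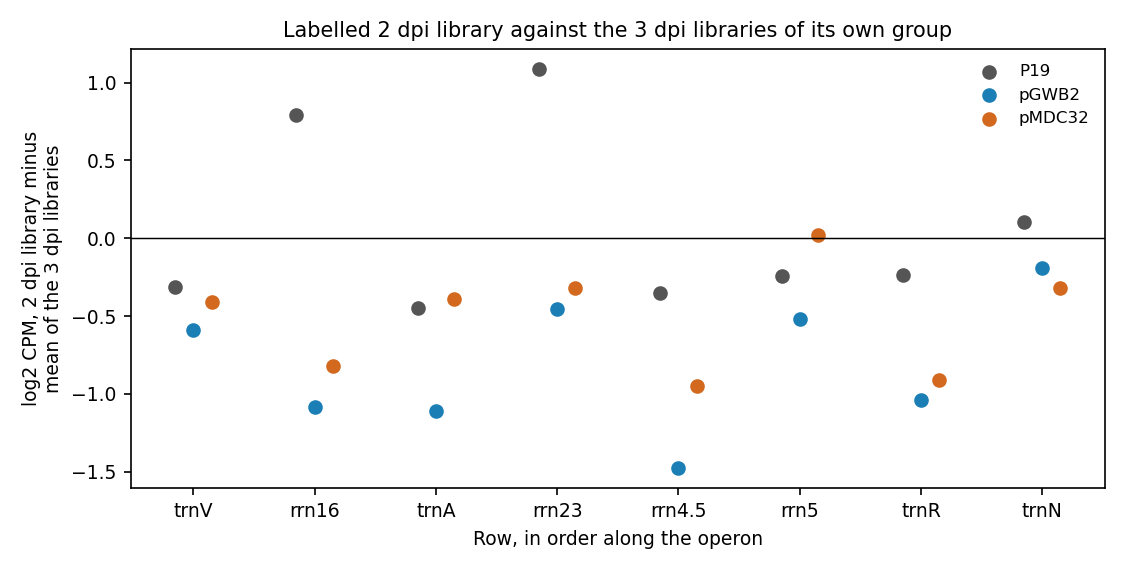
log2 CPM of the 2 dpi library minus the mean log2 CPM of the 2 libraries labelled 3 dpi in the same group, for each row in operon order. P19 lies at 0.79 for rrn16 and 1.09 for rrn23, where pGWB2 and pMDC32 lie between -1.08 and -0.32; for trnA and trnV all 3 groups lie below 0.

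The difference of the editor effect between labelled days was fitted as an interaction, in which the P19 arm at 2 dpi is 1 library and has no spread of its own. The adjusted p was under 0.05 for 3 members, with log2 values (effect at 2 dpi minus effect at 3 dpi) of -1.75 for rrn16 (SE 0.27, adjusted p = 0.00113), -1.47 for rrn23 (SE 0.23, adjusted p = 0.00113) and -0.74 for trnR (SE 0.27, adjusted p = 0.0484) by edgeR with BH adjustment. The same fit called 38.1% of plastid rows, 16.2% in this direction, so a called member was no rarity there. The rrn16 value was the lowest of all 105 plastid rows. The P19 library at 2 dpi is replicate 1, so the result cannot be told apart from that library, and without pGWB2 replicate 1 it called 0 members, with rrn16 at -1.68 and rrn23 at -1.46 (adjusted p = 0.0548 for both, edgeR). The trnR call was lost when counts were scaled by library size alone (-0.36), and without P19 replicate 3, pGWB2 replicate 1 or 3, or any 1 of the pMDC32 libraries (-0.81 to -0.57, edgeR adjusted p from 0.0609 to 0.200).

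Ratios of rows within a library need no scaling between libraries. The rRNA rows hold what depletion left, so a ratio with an rRNA also depends on how far each rRNA was removed in that library. The part of depletion was not tested. The ratio of rrn23 to rrn16 counts was higher in every 2 dpi library than in every 3 dpi library. It was 3.26, 4.21 and 3.71 at 2 dpi in P19, pGWB2 and pMDC32. At 3 dpi it was 2.56 and 2.77 in P19, 2.83 and 2.62 with pGWB2, and 2.31 and 2.98 with pMDC32. This order held in each group, P19 included. The mean log2 ratio was 1.89 ± 0.18 (SD, n = 3) at 2 dpi and 1.42 ± 0.13 (SD, n = 6) at 3 dpi, a difference of 0.47. The exact permutation test, two-sided, gave p = 0.0119, the smallest that 3 against 6 libraries can give, and 0.119 after Benjamini-Hochberg adjustment over 15 ratio tests, which does not pass.

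Other ratios differed less clearly by day. Counts of trnA per count of rrn23 were 4.98, 7.80 and 10.1 at 2 dpi against 10.02 to 16.2 at 3 dpi, a log2 difference of -0.75 (exact permutation p = 0.0238, adjusted 0.119). The trnN to trnR ratio was higher at 2 dpi by 0.59 on the log2 scale (exact permutation p = 0.0238, adjusted 0.119). For rrn4.5 to rrn23 the difference was -1.03 (exact permutation p = 0.0952, adjusted 0.357) and for rrn5 to rrn23 it was -0.35 (exact permutation p = 0.369, adjusted 0.714). Without P19 replicate 1 the differences of trnA to rrn23 and rrn5 to rrn23 were -0.48 and -0.032. In all groups the trnN to trnR ratio of the 2 dpi library exceeded both 3 dpi libraries of its group.

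With the editor, no ratio moved beyond the spread between libraries. The log2 ratio of rrn23 to rrn16 was 1.61 ± 0.32 with the editor (SD, n = 6) and 1.51 ± 0.18 in P19 (SD, n = 3), a difference of 0.097 (exact permutation p = 0.667, adjusted 0.909). The differences for rrn4.5 to rrn23, rrn5 to rrn23, trnA to rrn23 and trnN to trnR were -0.52, -0.0087, 0.053 and 0.23, with exact permutation p-values of 0.429, 1.0, 0.917 and 0.429. Without P19 replicate 1 the 5 differences, in the same order from rrn23 to rrn16 on, were 0.20, -1.001, -0.45, -0.46 and 0.35. Without P19 replicate 2, rrn5 to rrn23 was 0.48 and trnA to rrn23 0.39, and without P19 replicate 3, rrn4.5 to rrn23 was 0.034. Between the vectors, where 3 against 3 libraries cannot give a p below 0.1, the 5 exact permutation p-values ran from 0.3 to 1.0.

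**Figure D5:**
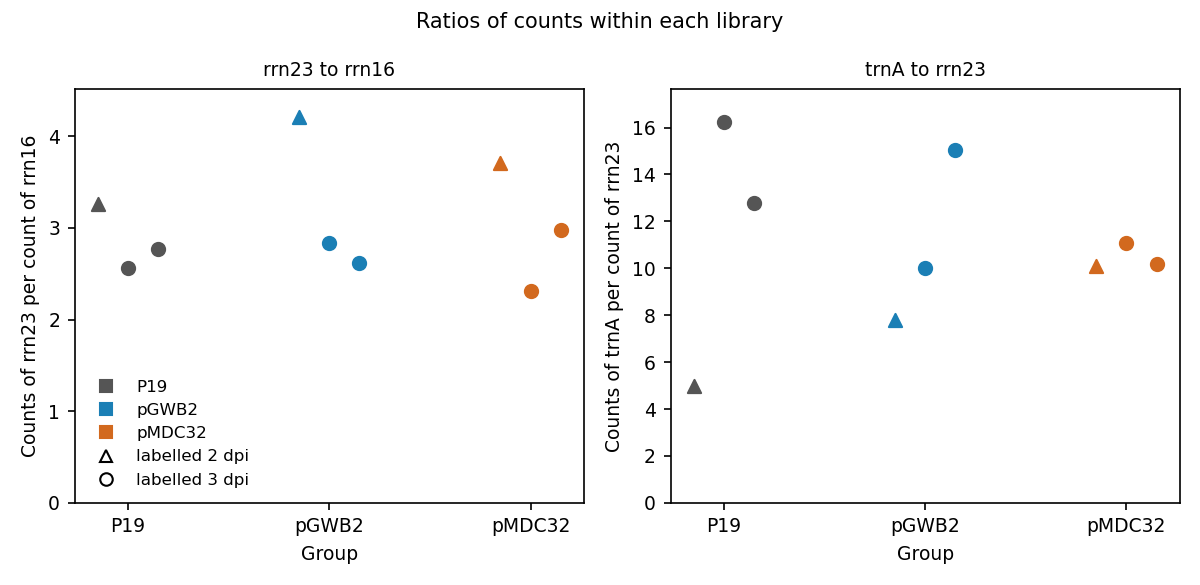
Counts of rrn23 per count of rrn16 (left) and of trnA per count of rrn23 (right) in each library, axes from 0, by group and labelled day. On the left every triangle (3.26 to 4.21) lies above every circle (2.31 to 2.98); on the right the P19 and pGWB2 triangles (4.98 and 7.80) lie below all circles.

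Other genes of plastid translation were described by counts for the same 6 editor libraries. Of 17 other tRNA rows 1 was called lower at 2 dpi (trnG for glycine, -0.58) and 0 were called higher. By sign alone 11 lay below 0 and 6 above, and the median log2 difference was -0.13. Of 12 genes for small-subunit and 9 for large-subunit ribosomal proteins 0 passed in either direction, with medians of -0.09 and -0.05. The 4 genes of the plastid-encoded RNA polymerase, which transcribes the operon, had differences from -0.27 (rpoC2) to -0.07 (rpoA), and 0 passed. Of 11 other genes in or beside the inverted repeat 0 passed, with values from -0.32 (trnI) to 0.25 (ndhB). The median was -0.65 over the members and -0.03 over all plastid rows.

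In the comparison of the editor with P19 the same lists held 0 called genes. Small-subunit protein genes had a median log2 difference of 0.15 and large-subunit protein genes of 0.22, with 8 of 12 and 7 of 9 above 0, while 13 of 17 other tRNAs lay below 0 (median -0.26). The polymerase genes had a median of 0.03. Whether the members differed from these lists was not tested.

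For rrn16, rrn23, rrn5, trnA and trnN, the 2 rows other than the members with the highest correlation of log2 CPM over the 9 libraries were looked up. Pearson's r for trnA was 0.88 with trnG and 0.81 with rps16, and for trnN 0.91 with trnC and 0.81 with trnY. For rrn16 it was 0.77 with rps12 and 0.75 with trnG, and for rrn5 0.81 with rps16 and 0.74 with trnG. The rps12 row spans rrn16 on the other strand, and how reads were counted where rows overlap is not known. For rrn23 it was 0.88 with psbE and 0.87 with psaC, which became 0.47 and 0.57 without P19 replicate 1. These values describe the same 9 libraries, which share scaling factors, and were chosen as the highest of many. By ranks (Spearman's rho) the same pairs ran from 0.40 (rrn5 with rps16) to 0.95 (trnN with trnC). The rrn5 row had 38 to 88 reads per library.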

How the data were processed

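The authors deposited raw read counts per gene, not normalized. Tools in the submitters' processing notes include featureCounts 2.0.1, HISAT2 2.2.1 and DESeq2 1.42.0 beside Trim Galore 0.6.10 and FastQC 0.12.1. Directional libraries were made after rRNA depletion of total RNA, per the labels' protocols. The sources used here give no genome build, strand setting or treatment of overlapping or multiply mapped reads. Row lengths are those of the deposited table.

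From these counts, edgeR 4.0.16 in R 4.3.3 (TMM, filterByExpr, quasi-likelihood test, two-sided) fitted all 106 rows, with Benjamini-Hochberg adjustment over them and a threshold of 0.05. Vector comparisons used 1 fit of 9 libraries. DESeq2 1.42.0 and limma 3.58.1 (voom) were alternatives, beside other scalings, left-out libraries, replicate block, day and lane terms. The day test within the editor groups was one of these alternatives and is reported for itself. Ratios were compared by exact permutation tests, which took no account of group in the tests by day. Code was tested on simulated data.

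The members and lists were chosen with earlier results of these data known, and so was the pattern by day. The named genes are the members, the gene lists by their extremes, and the 2 rows most correlated with rrn16, rrn23, rrn5, trnA and trnN. That rule also named trnI as part of the operon, which the coordinates do not bear out. No replicate pair was a duplicate: chi-square over its degrees of freedom was at least 1359. Where nothing says libraries came from separate plants, p-values measure the spread between them, though the series text calls them biological replicates. Deviations of same-numbered libraries had correlations of -0.524 to 0.719, of mixed sign, so the numbers were not taken to pair samples. The 0.719 was between replicate 1 of pGWB2 and of pMDC32, both labelled 2 dpi, against 0.0511 and 0.114 for replicates 2 and 3. For a row at 38 to 88 reads, counting error alone is large.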

Additional observations from a re-analysis of the deposited data

Results flagged for a closer look

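The interaction of editor and labelled day, given as the log2 effect of 2 dpi less the effect of 3 dpi, was -1.75 for rrn16, -1.47 for rrn23 and -0.74 for trnR, each with an edgeR adjusted p under 0.05. The same fit called 38.1% of plastid rows, and 16.2% in this direction, and it called 0 members without pGWB2 replicate 1. The trnR call was lost in 6 of the 8 fits that leave out a library. P19 has 1 library at 2 dpi, so a difference between days cannot be told apart from P19 replicate 1, and these p-values do not establish one.

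Single libraries stood far from the others of their set, where the gap to the nearest library as a share of the whole range exceeded the 95% critical value of 0.625 for 6 libraries. Among the 6 editor libraries, pGWB2 replicate 3 had the highest rrn4.5 to rrn23 ratio (gap share 0.661) and pMDC32 replicate 2 the lowest rrn5 to rrn23 ratio (gap share 0.822). Among the 6 libraries labelled 3 dpi, pMDC32 replicate 2 had the highest rrn16 level (gap share 0.703). Chance flags about 1 in 20 such sets. The level of every member and every ratio was screened in both sets of libraries, and these quantities share rows and libraries.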

How the results depend on the processing

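No member was called in the 4 group comparisons under the other normalizations, without the filter, by DESeq2 or limma-voom, or with labelled day as a covariate, and lane terms were the exception given here. Plastid rows called by DESeq2 numbered 1 (pGWB2 against P19), 1 (pMDC32 against P19), 3 (editor against P19), 2 for labelled day (2 of them members) and 11 for day within the editor groups. With lane as a covariate pMDC32 against P19 called 49 plastid rows and 2 members (trnV 0.034), and pMDC32 against pGWB2 called 40 rows (rrn16 -0.36, rrn23 -0.77). Lane 8 alone, chosen after seeing the data, gave 51 rows, 1 member and trnV at 0.077. The fit of both vectors without P19 called 1 row. Scaling by library size alone put trnV at 0.030, 0.024 and 0.027 (pGWB2, pMDC32 and editor against P19) and rrn23 at -0.069 by day, with 2 rows called, 2 of them members. Among 3 dpi libraries, rrn16 and rrn23 were 0.29 and 0.25 for pMDC32 and 0.11 and 0.099 for the editor, against P19, and trnA to rrn23 was -0.34. The 6 editor libraries alone gave rrn23 at -0.41 by day, 7 rows and 5 members called, and rrn5 to rrn23 at 0.13. Differences of group medians turned rrn23 to rrn16 (0.073) and trnA to rrn23 (0.023) between vectors, and rrn5 to rrn23 (0.16) and trnA to rrn23 (-0.34) with the editor. The cause of these changes was not tested.

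With 1 library left out at a time, trnV ran from -0.22 to 0.10 (pGWB2), -0.23 to 0.10 (pMDC32) and -0.21 to 0.10 (editor) against P19. For pMDC32 against P19, rrn16 ran from -0.63 to 0.065 and rrn23 from -0.56 to 0.16. Between vectors, rrn4.5 ran from -1.05 to 0.13 and trnA from -0.026 to 0.55. By labelled day, rrn16 ran from -0.93 to 0.11 and rrn23 from -0.36 to 0.49, with 0 to 2 rows and 0 to 2 members called. Day within the editor groups called 0 to 10 rows and 0 to 6 members, and the interaction 0 to 57 rows and 0 to 3 members; the interaction could not be fitted without P19 replicate 1. Among ratios with the editor, trnA to rrn23 ran from -0.46 to 0.39, rrn5 to rrn23 from -0.45 to 0.48 and rrn4.5 to rrn23 from -1.001 to 0.034. Between vectors, rrn23 to rrn16 ran from -0.26 to 0.11, trnN to trnR from -0.51 to 0.047 and trnA to rrn23 from -0.23 to 0.24.

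With the replicate block, editor against P19 gave -0.59 for rrn16, -0.48 for rrn23 and -0.44 for trnN, and the block changed no call in the 4 group comparisons.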
